A study of Mus musculus with 8 samples.

Results

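Integrins and laminins were followed in RNA-seq of isolated mouse epididymal white adipocytes, the fat cells of the visceral depot around the epididymis. The genes are all protein-coding entries of the table whose symbol begins with Itga, Itgb, or Lama, Lamb or Lamc and a digit, which gave 42 of 30387 genes. They hold 27 entries for integrin chains, 11 laminin chains and 4 genes whose names match although their products are not chains (Itgb1bp1, Itgb1bp2, Itgb3bp and Itgbl1). The integrin entries were divided by the cells they are known from: 9 leukocyte entries, 17 chains that bind matrix, and Itga2b, the platelet chain. Of the 42 entries, 41 had a mean of at least 5 normalized counts and were tested. The other one is a second entry named Itgam (ENSMUSG00000108596), which lies over the main Itgam gene and had 1 normalized count in each Ad-Yap/Taz-KO library on HFD and 0 elsewhere.

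The study asked what the transcriptional co-activators YAP and TAZ do in adipocytes when mice become obese. Ad-Yap/Taz-KO mice carry floxed Yap and Taz alleles (Yap fl/fl and Taz fl/fl) and Adipoq-Cre, a Cre without an inducible switch that is driven by the adiponectin promoter, which is active in adipocytes. The controls, called WT, were wild-type littermates. The mice received normal chow, here called SD, or a high-fat diet (HFD) for 4 weeks from week 5 of age per the series text or at 6 weeks per the study's methods, which gave 4 groups of 2 libraries. The strain of these mice is not given beyond C57BL/6 breeding of the Taz line, and the study describes the libraries as biological replicates from 2 mice in each group, which the labels do not tie to single libraries. Values are gene counts that the authors scaled library by library and rounded, called normalized counts below.

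From the steps of low values, 1 read was estimated to be worth 0.795 to 1.14 normalized counts, which puts the libraries at 13.99 to 22.3 M reads on genes. TAZ (Wwtr1) was lower in Ad-Yap/Taz-KO on both diets, by 1.56 ± 0.18 on HFD and 1.24 ± 0.18 on SD on the log2 scale (SE; limma adjusted p = 3.1e-05 and 0.00097), whereas the log2 difference of Yap1 was -0.71 ± 0.16 on SD (adjusted p = 0.024) and -0.42 ± 0.16 on HFD (adjusted p = 0.059). The adipocyte markers were present in all 8 libraries, but their summed level was 341780 to 349068 normalized counts in WT on HFD, 82420 to 165280 in Ad-Yap/Taz-KO on HFD and 150712 to 218077 on SD, and 8 of 9 fell on HFD. All 5 pan-leukocyte markers rose in Ad-Yap/Taz-KO on both diets, and they summed to 303 to 483 normalized counts in WT on HFD, 7422 to 8222 in Ad-Yap/Taz-KO on HFD, 863 to 1022 in WT on SD and 3481 to 5613 in Ad-Yap/Taz-KO on SD. In bulk RNA, fewer cells of a type and less RNA per cell cannot be told apart. The WT HFD libraries were also closer to each other than those of any other group. Among genes with 1000 to 5000 normalized counts, the spread between WT HFD libraries was 5.64 times that of random counting, against 17.0 to 55.6 times in the other groups. All groups share 1 estimate of the spread in the test, and all comparisons were repeated with the WT pair on HFD averaged to 1 sample.

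Integrins are cell-surface receptors made of 1 alpha and 1 beta chain, which bind extracellular matrix or counter-receptors on other cells and connect them, through talin and kindlin, to actin. Laminins are trimers of 1 alpha, 1 beta and 1 gamma chain and form the polymer on which basement membranes are built, including the one that surrounds each mature adipocyte. The beta 2 integrins and the beta 7 integrins belong to leukocytes, whereas the beta 1 integrins with alpha 3, alpha 6 or alpha 7 are laminin receptors.

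Each gene was tested on log2(normalized count + 1) in 1 limma model of the 18800 genes whose mean reached 5, and a gene passed when its p, adjusted by the Benjamini-Hochberg method, was no more than 0.05 and its log2 fold change reached 0.59 in either direction. Between Ad-Yap/Taz-KO and WT on HFD, 26 of the 41 genes tested passed, 18 higher and 8 lower. Among all genes tested, 32.2% passed this comparison, 17.1% higher and 15.1% lower. On SD the knockout comparison gave 8 of 41, 5 higher and 3 lower, against 4.71% of all genes, 3.21% higher and 1.5% lower. The median log2 fold change of the 41 genes was 1.14 on HFD and -0.06 on SD, beside 0.09 and -0.01 over all genes. The libraries of the knockout and WT on HFD did not overlap for 37 of the 41 genes, which is also so for 69.6% of all genes. On SD they did not overlap for 22 of the 41, beside 45.0% of all genes. Both knockout comparisons are plotted in the chart of log2 fold changes.

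**Figure D1:**
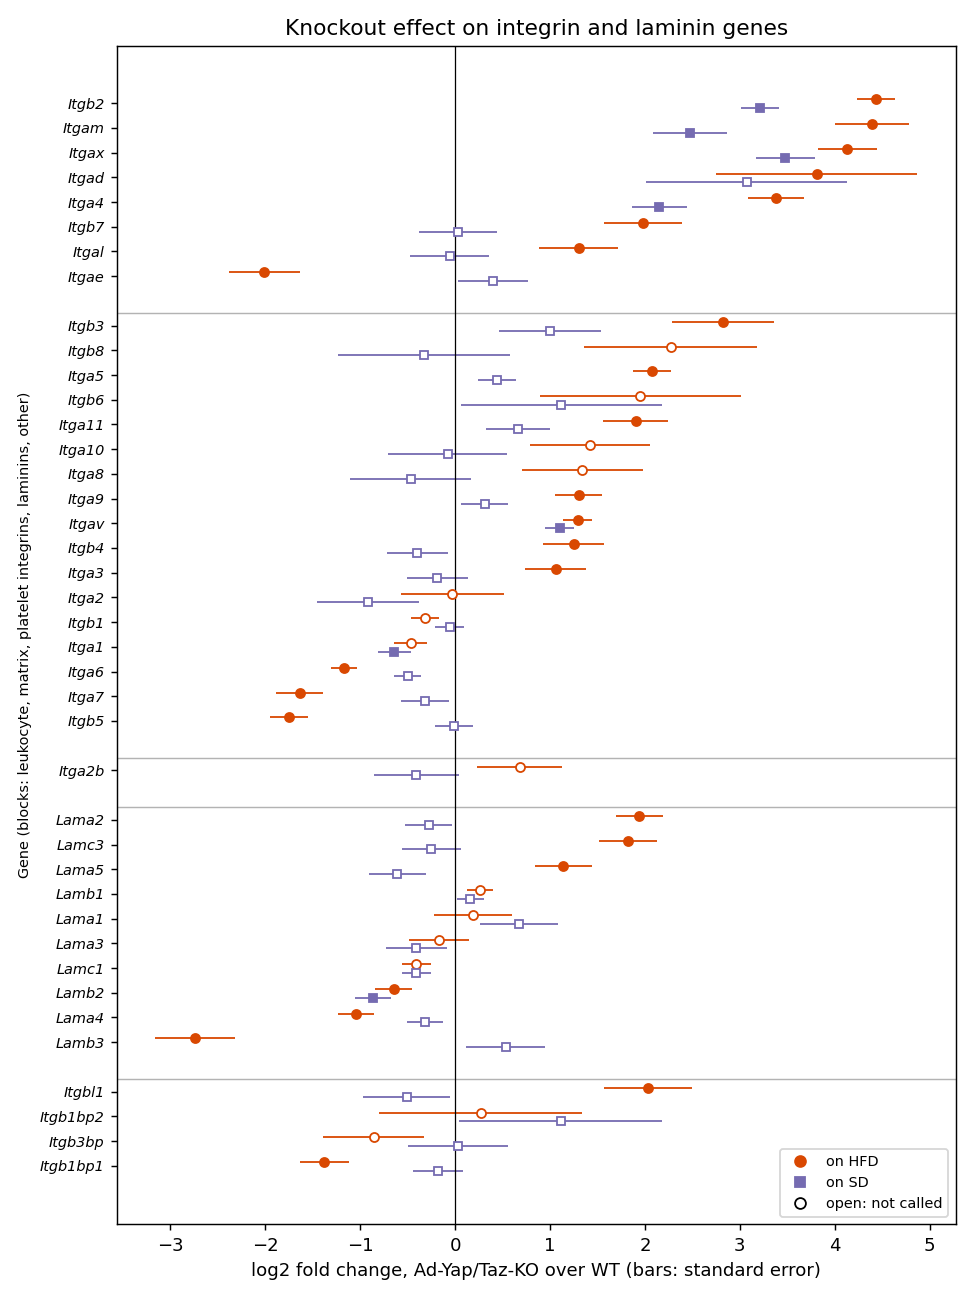
Log2 fold change of Ad-Yap/Taz-KO over WT (x axis) for 40 of the 41 genes tested (y axis), on HFD (circles) and on SD (squares), with the standard error of the limma model as bars. Filled symbols passed the test. On HFD 7 of 8 leukocyte integrins lie to the right and Itgae to the left, from 4.43 for Itgb2 to -2.01 for Itgae.

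The leukocyte integrins were the class in which every gene tested changed on HFD, 7 higher and 1 lower of 8, with a median log2 fold change of 3.60. On SD 4 of the 8 rose and none fell, with a median of 2.31. Itgb2, the beta 2 chain shared by the integrins LFA-1, Mac-1 and CD11c/CD18, had 337 and 276 normalized counts in WT on SD, 3304 and 2424 in Ad-Yap/Taz-KO on SD, 144 and 147 in WT on HFD and 3476 and 2863 in Ad-Yap/Taz-KO on HFD. All 4 knockout libraries lay far above the 4 WT libraries, and the 2 diets overlapped within the knockout. The fold change was 21.5 on HFD (log2 4.43 ± 0.20, adjusted p = 2.3e-08) and 9.25 on SD (log2 3.21 ± 0.20, adjusted p = 2e-06).

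Itgax, the CD11c chain, is carried by dendritic cells and by macrophages of inflamed fat. It had 65 and 79 normalized counts in WT on SD, 1109 and 588 in Ad-Yap/Taz-KO on SD, 67 and 52 in WT on HFD and 1237 and 896 in Ad-Yap/Taz-KO on HFD. No knockout library came near a WT library, while WT did not differ by diet beyond its spread. The log2 fold change was 4.13 ± 0.31 on HFD (adjusted p = 1.1e-06) and 3.48 ± 0.31 on SD (adjusted p = 3.1e-05). Itgam, the CD11b chain of macrophages and neutrophils, had 65 and 66 normalized counts in WT on SD, 470 and 287 in Ad-Yap/Taz-KO on SD, 14 and 31 in WT on HFD and 504 and 414 in Ad-Yap/Taz-KO on HFD. Here the WT libraries on HFD were the lowest and again all knockout libraries the highest, with log2 fold changes of 4.39 ± 0.39 on HFD and 2.47 ± 0.39 on SD (adjusted p = 0.0019 on SD). Itgam shares 68.7% of its exon bases with its second entry on the same strand, and reads assigned to more than one gene are not counted, so its level would be understated in every library.

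The promoter of Itgax is shown because the knockout difference of this gene was among the highest in the class and because it holds the letters of the AP-1 motif, TGANTCA, at -56 to -50 from the RefSeq start site. The bases before the start site are from RefSeq on GRCm38.p6, chr7:128129434-128129549, plus strand, with the motif in capitals.
Itgax: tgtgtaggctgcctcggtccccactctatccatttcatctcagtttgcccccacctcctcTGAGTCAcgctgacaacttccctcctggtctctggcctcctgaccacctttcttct
A promoter was found for 26 of the gene symbols (29 promoters), and the motif, which reads the same on both strands, was in those of Itga3, Itga9 and Itgax, against 7.81% of the 32851 promoters of the same length. A match of letters is a description of the sequence and not a binding site.

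Itga4, which pairs with the beta 1 or beta 7 chain to bind VCAM1 and fibronectin, had 82 and 136 normalized counts in WT on SD, 557 and 398 in Ad-Yap/Taz-KO on SD, 83 and 69 in WT on HFD and 749 and 851 in Ad-Yap/Taz-KO on HFD. The genotypes were wholly apart on each diet. It was 10.4-fold higher in Ad-Yap/Taz-KO on HFD (adjusted p = 2.9e-06) and 4.42-fold higher on SD (adjusted p = 0.00063). Itgb7, the beta 7 chain of gut-homing lymphocytes, had 64 and 73 normalized counts in WT on SD, 83 and 59 in Ad-Yap/Taz-KO on SD, 25 and 30 in WT on HFD and 92 and 134 in Ad-Yap/Taz-KO on HFD. The groups overlapped on SD and were apart on HFD, where WT was the lowest of the 4 groups (log2 1.98 ± 0.41, adjusted p = 0.0027). Itgal, the LFA-1 alpha chain of lymphocytes and other leukocytes, was likewise lowest in WT on HFD, with 74 and 74 normalized counts in WT on SD, 60 and 84 in Ad-Yap/Taz-KO on SD, 34 and 23 in WT on HFD and 65 and 76 in Ad-Yap/Taz-KO on HFD. Its difference on HFD (log2 1.30 ± 0.42, adjusted p = 0.03) was no longer called when the WT pair on HFD counted as 1 sample (adjusted p = 0.087) or without WT HFD replicate 2 or either Ad-Yap/Taz-KO HFD library, nor with quantile normalization (log2 0.76) or a fit of the HFD groups alone (adjusted p = 0.063).

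Itgad, the CD11d chain known from tissue macrophages, was low, with 4 and 3 normalized counts in WT on SD, 35 and 38 in Ad-Yap/Taz-KO on SD, 8 and 1 in WT on HFD and 185 and 18 in Ad-Yap/Taz-KO on HFD. The knockout libraries on HFD differed widely from each other, and the call on HFD (log2 3.81 ± 1.06, adjusted p = 0.015) was lost without Ad-Yap/Taz-KO HFD replicate 1 or without WT HFD replicate 2. With 1 library left out the log2 difference ran from 2.16 to 5.45, and the call was also lost with no filter on low values (adjusted p = 0.066), with quantile normalization (0.068) and with only the HFD groups in the fit (0.061). On SD the log2 difference was 3.07 ± 1.06 (adjusted p = 0.14).

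Itgae, the CD103 chain that pairs with beta 7 on intraepithelial T cells and some dendritic cells, ran the other way. It had 44 and 49 normalized counts in WT on SD, 61 and 62 in Ad-Yap/Taz-KO on SD, 157 and 154 in WT on HFD and 36 and 40 in Ad-Yap/Taz-KO on HFD. WT on HFD stood above the other 6 libraries, and the knockout on HFD was the lowest group. The gene was 4.02-fold lower in Ad-Yap/Taz-KO on HFD (log2 -2.01 ± 0.37, adjusted p = 0.0014), while its log2 difference on SD was 0.40 ± 0.37 (adjusted p = 0.65). The class median therefore does not describe Itgae.

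**Figure D2:**
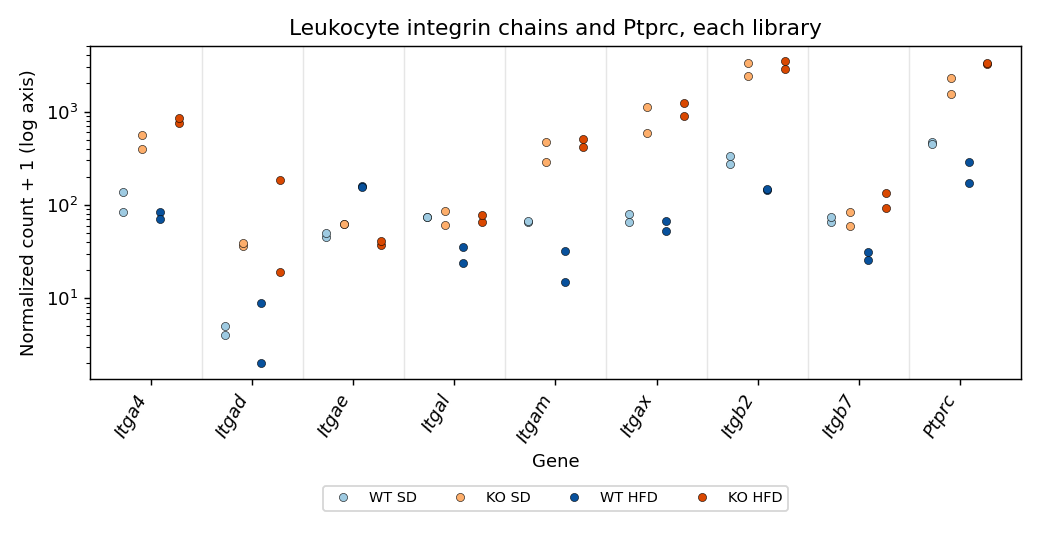
Normalized count plus 1 (y axis, log scale) of the 8 leukocyte integrin chains tested and of the pan-leukocyte gene Ptprc (x axis), with 1 point for each library and colours for the 4 groups. In Itgb2, Itgax, Itgam and Itga4 both knockout groups lie above both WT groups, whereas Itgae is highest in WT on HFD, at 157 and 154.

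Ptprc, which encodes the pan-leukocyte surface protein CD45, was also higher in the knockout on both diets. It had 473 and 444 normalized counts in WT on SD, 2279 and 1549 in Ad-Yap/Taz-KO on SD, 289 and 169 in WT on HFD and 3224 and 3292 in Ad-Yap/Taz-KO on HFD, with log2 fold changes of 3.88 ± 0.24 on HFD and 2.03 ± 0.24 on SD (adjusted p = 3e-07 and 0.00029). Of 10 macrophage markers, 8 rose on each diet, among them Adgre1, which encodes F4/80, at log2 5.31 on HFD and 3.04 on SD. The macrophage sum ran from 3567 to 3761 normalized counts in WT on HFD, 29761 to 31668 in Ad-Yap/Taz-KO on HFD, 6130 to 6207 in WT on SD and 17086 to 29665 in Ad-Yap/Taz-KO on SD. The neutrophil sum was 12 and 12 normalized counts in WT on HFD, 69 and 61 in Ad-Yap/Taz-KO on HFD, 49 and 25 in WT on SD and 80 and 66 in Ad-Yap/Taz-KO on SD, and of 3 markers tested Csf3r rose on HFD (log2 4.54, adjusted p = 0.0013). The lymphocyte sum was 45 and 41 in WT on HFD, 147 and 295 in Ad-Yap/Taz-KO on HFD, 123 and 214 in WT on SD and 273 and 184 in Ad-Yap/Taz-KO on SD, and of 5 tested Cd4 and Cd79a rose on HFD (log2 2.46 and 2.47). The markers Ly6g, Cxcr2, Retnlg and Mmp8 and, for lymphocytes, Cd3d, Ms4a1, Ncr1, Klrb1c and Nkg7 were under a mean of 5. None of 6 dendritic cell markers was called in either knockout comparison. Among them Flt3, Cd209a, Ccr7 and Xcr1 had means of only 6.5 to 17.1 normalized counts, so a change in these could be missed. The part of these cell types in the integrin changes was not tested.

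Within libraries, and per kb of exon so that genes can be compared, the leukocyte chains did not all follow one another. The level of Itgal relative to Itgb2 was 0.0727 to 0.125 in the 4 WT libraries and 0.00844 to 0.0161 in the 4 knockout libraries. Itgb7 relative to Ptprc was 0.572 to 1.17 in WT and 0.189 to 0.269 in the knockout. The level of Itgb2 relative to Ptprc was 2.99 to 5.22 in WT and 5.22 to 9.39 in the knockout. The ratio of Itgax to Itgb2 overlapped between genotypes, at 0.123 to 0.296 in WT and 0.154 to 0.226 in the knockout, as did that of Itga4 to Ptprc, at 0.227 to 0.535 and 0.304 to 0.339. Itgal and Itgb7 thus made up a smaller portion, and Itgax and Itga4 a portion within the WT range. The share of Itgb2 in the summed level per kb of all beta chains was 4.81% and 3.68% in WT on SD, 31.1% and 28.3% in Ad-Yap/Taz-KO on SD, 1.15% and 1.22% in WT on HFD and 29.9% and 27.0% in Ad-Yap/Taz-KO on HFD.

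Among the 17 matrix integrins, 7 rose and 3 fell in Ad-Yap/Taz-KO on HFD, with a median log2 fold change of 1.29, while 1 rose and 1 fell on SD, with a median of -0.08. Itgb1 is the beta chain with the highest level per kb in all 8 libraries and partner of most matrix alpha chains. It had 7393 and 7743 normalized counts in WT on SD, 7998 and 6607 in Ad-Yap/Taz-KO on SD, 10946 and 10484 in WT on HFD and 8616 and 8548 in Ad-Yap/Taz-KO on HFD. WT on HFD was above the other 6 libraries, but the log2 difference on HFD, -0.32 ± 0.15, did not pass (adjusted p = 0.12), and it became positive when libraries were scaled to the same total or quantile normalized. Itgb1 passed the test in none of the 5 comparisons.

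Itgav, the alpha chain of the vitronectin and osteopontin receptors, was the matrix integrin that rose on both diets. It had 1541 and 1667 normalized counts in WT on SD, 3527 and 3342 in Ad-Yap/Taz-KO on SD, 1938 and 1708 in WT on HFD and 4757 and 4167 in Ad-Yap/Taz-KO on HFD. All knockout libraries exceeded all WT libraries. It was 2.14-fold higher on SD (log2 1.10 ± 0.15, adjusted p = 0.00068) and 2.45-fold higher on HFD (log2 1.29 ± 0.15, adjusted p = 3.6e-05). The bases before its RefSeq start site are shown because this difference held on both diets and because they contain, on the opposite strand at -9 to -2, the letters GAGGAAGT searched as the PU.1 motif, a factor of the myeloid lineage (GRCm38.p6, chr2:83724328-83724396, plus strand, match in capitals).
Itgav: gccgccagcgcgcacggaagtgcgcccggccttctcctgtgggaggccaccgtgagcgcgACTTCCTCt
On either strand this motif was in the promoters of Itga11, Itgav, Itgb6 and Itgb7 and in 3.20% of the 32851 promoters. Of the leukocyte chains with a promoter in the table, Itgb7 alone had a match.

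The beta partners of Itgav moved apart. Itgb3, the beta chain of the platelet and osteoclast vitronectin receptor, had 50 and 27 normalized counts in WT on SD, 105 and 53 in Ad-Yap/Taz-KO on SD, 10 and 10 in WT on HFD and 68 and 87 in Ad-Yap/Taz-KO on HFD. It was 7.08-fold higher in the knockout on HFD (log2 2.82 ± 0.54, adjusted p = 0.0016), where the groups were well apart. Itgb5, which forms another alpha v receptor, had 1038 and 1389 normalized counts in WT on SD, 1222 and 1171 in Ad-Yap/Taz-KO on SD, 4807 and 4582 in WT on HFD and 1694 and 1150 in Ad-Yap/Taz-KO on HFD. Both WT libraries on HFD stood far above the other 6, which overlapped. Itgb5 was 3.36-fold lower in Ad-Yap/Taz-KO on HFD (log2 -1.75 ± 0.20, adjusted p = 3.3e-05) and its log2 difference on SD was -0.01 ± 0.20 (adjusted p = 0.99). Per kb, the ratio of Itgav to Itgb5 was 0.123 to 0.133 in WT on HFD, compared with 0.929 and 1.20 in Ad-Yap/Taz-KO on HFD. Itgb6 and Itgb8, the beta chains known for activation of TGF-beta, stayed between 0 and 51 normalized counts and were not called in any comparison.

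Itga5, the alpha chain of the fibronectin receptor, had 2586 and 2644 normalized counts in WT on SD, 4426 and 2829 in Ad-Yap/Taz-KO on SD, 1142 and 1466 in WT on HFD and 5509 and 5388 in Ad-Yap/Taz-KO on HFD. WT on HFD was the lowest group and the knockout on HFD the highest. It was 4.21-fold higher on HFD (log2 2.07 ± 0.20, adjusted p = 9.2e-06), with a log2 difference of 0.44 ± 0.20 on SD (adjusted p = 0.29). The collagen receptor chain Itga11, known from fibroblasts, had 65 and 49 normalized counts in WT on SD, 101 and 80 in Ad-Yap/Taz-KO on SD, 51 and 65 in WT on HFD and 226 and 211 in Ad-Yap/Taz-KO on HFD. The knockout libraries on HFD were more than any other library had (log2 1.90 ± 0.34, adjusted p = 0.0012). Itga9, which binds tenascin and VCAM1, had 309 and 261 normalized counts in WT on SD, 429 and 291 in Ad-Yap/Taz-KO on SD, 252 and 204 in WT on HFD and 489 and 644 in Ad-Yap/Taz-KO on HFD, and was 2.47-fold higher in the knockout on HFD (adjusted p = 0.0016). These 3 chains were higher in each knockout library than in each WT library on HFD.

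Laminin receptor chains went in both directions on HFD. Itga6 had 4386 and 4376 normalized counts in WT on SD, 3345 and 2871 in Ad-Yap/Taz-KO on SD, 7581 and 7531 in WT on HFD and 3426 and 3307 in Ad-Yap/Taz-KO on HFD. The knockout was below WT on both diets, with a 2.24-fold difference that passed on HFD (log2 -1.17 ± 0.14, adjusted p = 5.9e-05) and a log2 difference of -0.50 ± 0.14 that did not on SD (adjusted p = 0.07). Itga7, whose product is the laminin receptor of muscle, had 3101 and 3362 normalized counts in WT on SD, 2229 and 3006 in Ad-Yap/Taz-KO on SD, 4735 and 4750 in WT on HFD and 2126 and 1091 in Ad-Yap/Taz-KO on HFD. It was 3.11-fold lower in the knockout on HFD (log2 -1.64 ± 0.25, adjusted p = 0.00035), where all other libraries lay above both knockout libraries, and the log2 difference on SD was -0.32 ± 0.25 (adjusted p = 0.58). By contrast Itga3, a laminin receptor chain of epithelia and podocytes, rose from 192 and 191 normalized counts in WT on HFD to 360 and 447 in Ad-Yap/Taz-KO on HFD, beside 355 and 372 in WT on SD and 485 and 210 in Ad-Yap/Taz-KO on SD. The knockout on HFD was thus within the range of the SD libraries (log2 1.06 ± 0.32, adjusted p = 0.021), and did not pass once the WT pair on HFD was averaged (adjusted p = 0.1), with no filter on low values (adjusted p = 0.076), or without either WT HFD library or Ad-Yap/Taz-KO HFD replicate 2.

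Itgb4, the hemidesmosomal partner of alpha 6, had 320 and 308 normalized counts in WT on SD, 300 and 188 in Ad-Yap/Taz-KO on SD, 92 and 150 in WT on HFD and 221 and 357 in Ad-Yap/Taz-KO on HFD. WT on HFD was again the lowest group (log2 1.25 ± 0.32, adjusted p = 0.01), and the call did not hold without WT HFD replicate 1 or Ad-Yap/Taz-KO HFD replicate 2. Of 6 epithelial markers, Epcam, Cdh1, Krt8, Cldn4 and Elf3 had a mean under 5, and the sum of the list was 8 to 38 normalized counts. Itga1, a collagen receptor chain, had 1953 and 1937 normalized counts in WT on SD, 1311 and 1188 in Ad-Yap/Taz-KO on SD, 1852 and 1768 in WT on HFD and 1136 and 1510 in Ad-Yap/Taz-KO on HFD. The knockout was below WT on both diets, and its fall passed on SD (log2 -0.64 ± 0.17, adjusted p = 0.046), where it held in 6 of 13 alternatives and, of the 8 libraries, only without either Ad-Yap/Taz-KO HFD library. On HFD the log2 difference was -0.47 ± 0.17, under the fold limit, and -0.08 with libraries scaled to the same total (limma adjusted p = 0.78). The other matrix chains, Itga2, Itga8, Itga10, Itgb6 and Itgb8, had at most 102 normalized counts in any library and were called in no comparison; Itga10 shares 33.5% of its exon bases with another gene on the same strand. Itga2b, the platelet chain, was at 46 to 155 normalized counts, with a log2 difference of 0.68 ± 0.45 on HFD (adjusted p = 0.27), while 4 of 5 platelet markers rose on HFD and their sum ran from 67 and 72 in WT to 375 and 511 in the knockout.

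**Figure D3:**
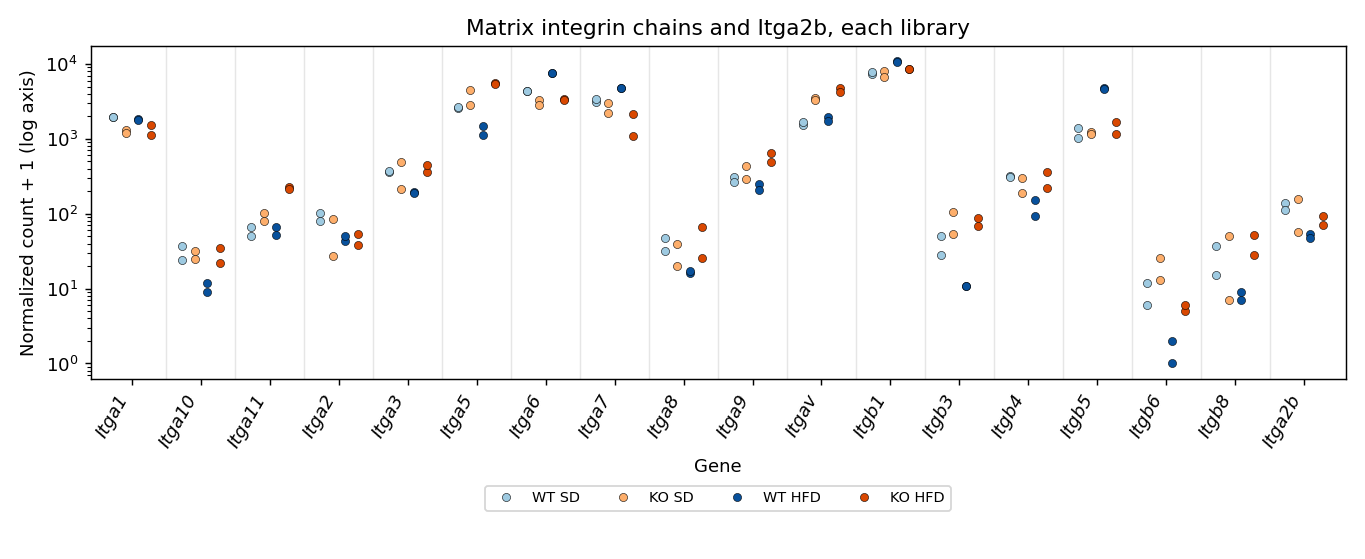
Normalized count plus 1 (y axis, log scale) of the 17 matrix integrin chains and of Itga2b (x axis), with 1 point for each library and colours for the 4 groups. WT on HFD is the highest group for Itgb5, Itga6 and Itga7 and the lowest for Itga5 and Itgb3, and Itgav is higher in both knockout groups.

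Per kb of exon, Itga5 and Itga6 exchanged places within the libraries. The ratio of Itga5 to Itga6 was 1.08 and 1.11 in WT on SD, 2.42 and 1.80 in Ad-Yap/Taz-KO on SD, 0.276 and 0.356 in WT on HFD and 2.94 and 2.98 in Ad-Yap/Taz-KO on HFD. It was thus above 1 in all groups except WT on HFD. As a share of the summed alpha chains per kb, Itga5 went from 11% and 14.0% in WT on HFD to 38.1% and 41.1% in Ad-Yap/Taz-KO on HFD, and Itga6 from 40.1% and 39.3% to 13.0% and 13.8%.

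Of the 11 laminin chains, 3 rose and 3 fell in Ad-Yap/Taz-KO on HFD, with a median log2 fold change of -0.17, and on SD none rose and 2 fell. The opposite moves were clearest among the alpha chains, which decide the receptor that a laminin binds. Lama4, the alpha 4 chain of adipocyte and endothelial basement membranes, had 6970 and 10064 normalized counts in WT on SD, 5939 and 7598 in Ad-Yap/Taz-KO on SD, 8656 and 8749 in WT on HFD and 4405 and 3991 in Ad-Yap/Taz-KO on HFD. The knockout on HFD was below all other libraries, 2.08-fold lower than WT on HFD (log2 -1.05 ± 0.19, adjusted p = 0.0011), and on SD the genotypes overlapped (log2 -0.32 ± 0.19, adjusted p = 0.43).

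Lama2, the alpha 2 chain known from muscle, nerve and mesenchymal cells, had 2687 and 2546 normalized counts in WT on SD, 3001 and 1553 in Ad-Yap/Taz-KO on SD, 1324 and 1261 in WT on HFD and 4276 and 5785 in Ad-Yap/Taz-KO on HFD. On HFD the WT libraries were the lowest and the knockout libraries the highest of the 8. The fold change on HFD was 3.85 (log2 1.94 ± 0.25, adjusted p = 9.1e-05), and the log2 difference on SD was -0.28 ± 0.25 (adjusted p = 0.64). Lama5, an alpha chain of epithelial and vascular basement membranes, had 2208 and 1559 normalized counts in WT on SD, 1787 and 824 in Ad-Yap/Taz-KO on SD, 906 and 726 in WT on HFD and 1551 and 2050 in Ad-Yap/Taz-KO on HFD. It rose on HFD (log2 1.14 ± 0.30, adjusted p = 0.011), to a level that overlapped WT on SD, and did not pass once the WT pair on HFD was averaged (adjusted p = 0.071), with no filter on low values, or without WT HFD replicate 2 or Ad-Yap/Taz-KO HFD replicate 2. Lama1 and Lama3, at 57 to 216 normalized counts, were called in no comparison.

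Within each library, the make-up of the laminin alpha chains per kb therefore differed. Lama4 accounted for 79.6% and 81.6% of the summed alpha chains in WT on HFD and for 46.7% and 37.1% in Ad-Yap/Taz-KO on HFD, with 57.6% to 76.4% in the SD libraries. Lama2 accounted for 8.69% to 9.0% in WT on HFD and 33.5% and 39.7% in Ad-Yap/Taz-KO on HFD, with 11.5% to 21.5% on SD. The 2 shares did not overlap between the HFD groups, and the SD libraries lay between them. The summed level of the 5 alpha chains per kb, 780.8 to 1148 over the 8 libraries, overlapped between those groups.

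**Figure D4:**
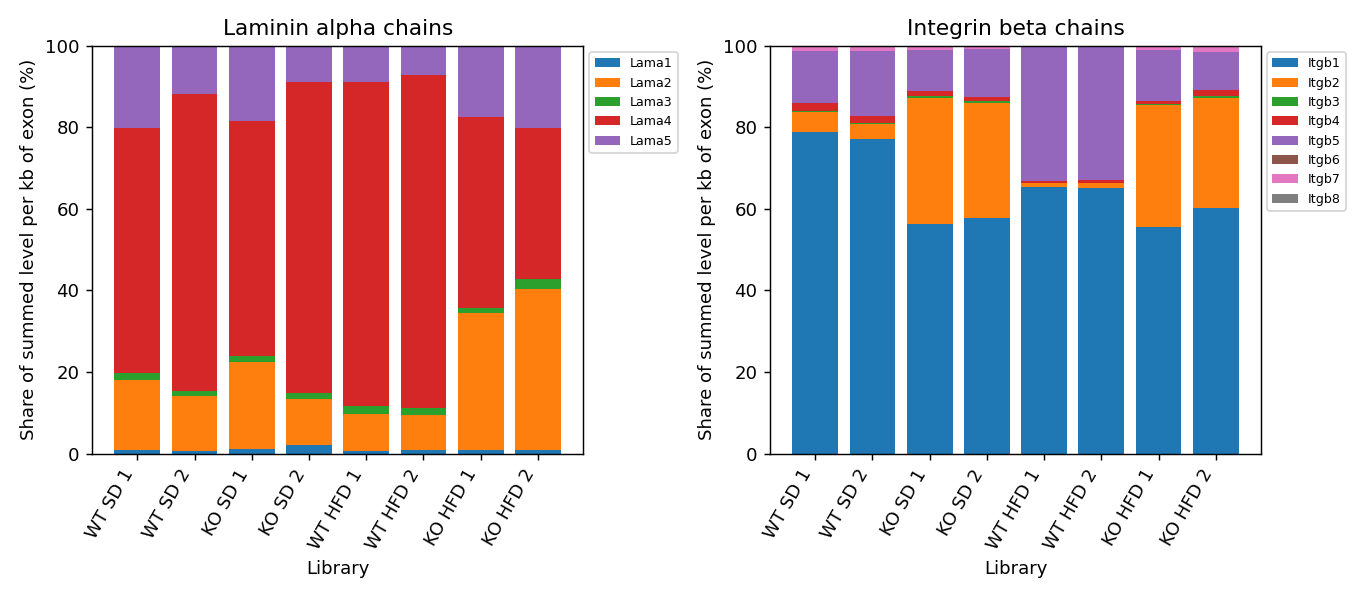
Share of each gene in the summed level per kb of exon (y axis, percent) of the 5 laminin alpha chains (left) and of the 8 integrin beta chains (right), 1 bar for each library (x axis). Lama4 falls from 79.6% and 81.6% in WT on HFD to 46.7% and 37.1% in Ad-Yap/Taz-KO on HFD, Itgb2 is above 25% in the 4 knockout libraries only, and Itgb5 is highest in WT on HFD.

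The gamma 1 chain, Lamc1, is part of most laminins and was the laminin gene with the most counts. It had 10800 and 11717 normalized counts in WT on SD, 8705 and 8263 in Ad-Yap/Taz-KO on SD, 12187 and 12419 in WT on HFD and 8842 and 9672 in Ad-Yap/Taz-KO on HFD. The knockout was lower in each library on each diet, yet the log2 difference of -0.41 ± 0.15 on both diets did not reach the fold limit, and on HFD it became positive with quantile normalization. Lamb1, the common beta chain, varied between 4184 and 5297 normalized counts in all libraries (log2 0.26 ± 0.14 on HFD, adjusted p = 0.16). Lamb2, the beta chain of mature vascular and muscle basement membranes, had 3739 and 3799 normalized counts in WT on SD, 2488 and 1703 in Ad-Yap/Taz-KO on SD, 4460 and 4500 in WT on HFD and 2476 and 3314 in Ad-Yap/Taz-KO on HFD. It was lower in the knockout on both diets, by 0.87 ± 0.19 on SD and 0.65 ± 0.19 on HFD on the log2 scale (adjusted p = 0.02 and 0.021), and neither call held once the WT pair on HFD was averaged (adjusted p = 0.062 and 0.12). The call on HFD was also lost without either WT HFD library or Ad-Yap/Taz-KO HFD replicate 1, and that on SD without any one WT library or Ad-Yap/Taz-KO SD replicate 2. On HFD the call further depended on the scaling, with log2 differences of -0.26 at equal library totals, -0.32 with quantile normalization and -0.56 with upper-quartile scaling, none of which passed, and neither diet passed with no filter on low values (adjusted p = 0.07 on HFD and 0.11 on SD). On SD the call was also lost with only the SD groups in the fit (adjusted p = 0.078). Per kb, Lamb2 exceeded Lamb1 in all 4 WT libraries, at ratios of 1.22 to 1.74, and in 1 of the 4 knockout libraries, at 0.524 to 1.08.

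Lamb3, the beta 3 chain of epithelial laminin, had 77 and 62 normalized counts in WT on SD, 97 and 103 in Ad-Yap/Taz-KO on SD, 231 and 228 in WT on HFD and 53 and 21 in Ad-Yap/Taz-KO on HFD. WT on HFD was the highest group and the knockout on HFD the lowest, a 6.69-fold difference (log2 -2.74 ± 0.42, adjusted p = 0.00037), whereas the log2 difference on SD was 0.53 ± 0.42 (adjusted p = 0.59). Lamc3, a gamma chain of peripheral tissues, had 434 and 382 normalized counts in WT on SD, 457 and 258 in Ad-Yap/Taz-KO on SD, 121 and 135 in WT on HFD and 343 and 600 in Ad-Yap/Taz-KO on HFD. WT on HFD was the lowest group, and the knockout was 3.53-fold higher on that diet (log2 1.82 ± 0.31, adjusted p = 0.00073).

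Because YAP and TAZ bind DNA through TEAD factors, the promoters were also searched for the TEAD letters GGAATG. They were present in the promoters of Itga10, Itgb1 and Lamb3, and in 14.7% of the 32851 promoters. Those of Lamb3, which fell on HFD, and of Itgb1, which was not called, are shown with the match in capitals. In Lamb3 it is on the opposite strand at -167 to -162 (GRCm38.p6, chr1:193302016-193302141, plus strand) and in Itgb1 on the gene strand at -7 to -2 (chr8:128685587-128685653, plus strand).
Lamb3: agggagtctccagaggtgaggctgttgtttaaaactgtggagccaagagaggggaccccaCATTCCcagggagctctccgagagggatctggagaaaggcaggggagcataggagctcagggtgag
Itgb1: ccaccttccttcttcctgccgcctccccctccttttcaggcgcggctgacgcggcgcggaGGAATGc
No binding data were analysed here.

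**Figure D5:**
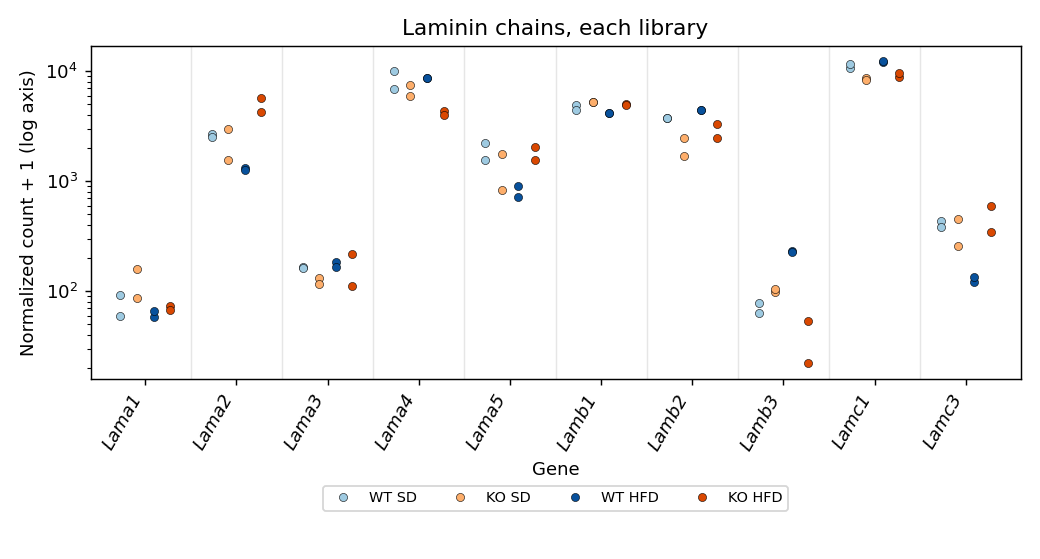
Normalized count plus 1 (y axis, log scale) of 10 laminin chains (x axis), with 1 point for each library and colours for the 4 groups. On HFD the knockout lies above WT for Lama2, Lama5 and Lamc3 and below it for Lama4, Lamb2 and Lamb3.

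Of the 4 genes that are not chains, Itgb1bp1 and Itgbl1 were called. Itgb1bp1, which encodes ICAP1, a protein that binds the tail of beta 1 integrin, had 861 and 763 normalized counts in WT on SD, 538 and 946 in Ad-Yap/Taz-KO on SD, 1160 and 1239 in WT on HFD and 581 and 365 in Ad-Yap/Taz-KO on HFD. The genotypes overlapped on SD and were apart on HFD, where the knockout was 2.60-fold lower (adjusted p = 0.0017). Itgbl1, a secreted protein with integrin-like repeats, had 32 and 47 normalized counts in WT on SD, 22 and 33 in Ad-Yap/Taz-KO on SD, 34 and 41 in WT on HFD and 126 and 191 in Ad-Yap/Taz-KO on HFD. The knockout on HFD stood above the other 6 libraries, 4.07-fold over WT (adjusted p = 0.0049, lost without Ad-Yap/Taz-KO HFD replicate 2). Itgb3bp, a centromere protein, and Itgb1bp2, a muscle protein, were at 1 to 68 normalized counts and were not called.

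Diet alone was next compared within each genotype. In WT, 15 of the 41 genes changed on HFD, 4 higher and 11 lower, against 18.0% of all genes, 8.74% higher and 9.22% lower. Itgb5, Itgae, Lamb3 and Itga6 rose, by 3.91-fold for Itgb5 (log2 1.97 ± 0.20, adjusted p = 0.00013), 3.30-fold for Itgae, 3.29-fold for Lamb3 and 1.72-fold for Itga6. Those that fell were 4 leukocyte integrins (Itgam, Itgal, Itgb7 and Itgb2), 3 matrix integrins (Itgb3, Itgb4 and Itga5) and 4 laminins, among them Lamc3, Lama5 and Lama2, from -1.78 for Itgb3 to -1.01 for Itga5 on the log2 scale. Itgb1, at 7393 and 7743 normalized counts on SD and 10946 and 10484 on HFD, had a log2 difference of 0.50 ± 0.15, below the fold limit. This difference was smaller with libraries scaled to the same total. Once the WT pair on HFD was averaged to 1 sample, Itgb5 alone was called of these 15 (adjusted p = 0.0086), and leaving out 1 of the 4 WT libraries left 2 to 7 called. The rise of Itga6 was also lost at equal library totals (log2 0.37, adjusted p = 0.097) and with quantile normalization (log2 0.47, adjusted p = 0.054), and with no filter on low values 7 of the 41 genes were called. Markers of several other cell types also fell with HFD in WT, 4 of 5 pan-leukocyte, 7 of 10 macrophage, 4 of 8 endothelial and 3 of 8 fibroblast and progenitor markers, with none of these higher. The lipid-associated macrophage and mural lists each gave 2 higher and 2 lower of 6, and the Schwann cell list 1 and 1 of 3. Adipocyte markers gave 2 higher and 0 lower of 9, and skeletal muscle markers 1 higher and 0 lower of 3. Lymphocyte markers gave 2 lower of 5 (Cd4 and Cd79a), with none higher. Neutrophil and mast cell lists each gave 1 lower of 3, platelet 1 of 5 and mesothelial 1 of 6, again with none higher. No dendritic cell or epithelial marker was called. The part of these cell types in the differences by diet was not tested.

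Within Ad-Yap/Taz-KO, 2 of 41 genes changed with diet, both higher, against 1.07% of all genes, 0.383% higher and 0.691% lower. Itgbl1 rose 5.58-fold (log2 2.48 ± 0.46, adjusted p = 0.027) and Lama2 2.30-fold (log2 1.20 ± 0.25, adjusted p = 0.041). None of the 26 integrin chains tested was called. Fibroblast and progenitor markers gave 2 higher of 8 (Col1a1 and Pdgfra, log2 1.57 and 1.37) and macrophage markers 1 of 10 (Adgre1, log2 1.37). Skeletal muscle markers gave 1 lower of 3 (Acta1, log2 -3.53), and no other marker was called. The part of these cell types was not tested. An unadjusted limma p under 0.05 was reached by 13 of the 41 genes, but the share of all genes at that limit was not computed. Calls here depended on single libraries: without Ad-Yap/Taz-KO SD replicate 1 there were 7 and without Ad-Yap/Taz-KO HFD replicate 1 there were 4, while omission of any one of the other 6 libraries left 0.

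The effect of the knockout differed between HFD and SD for 16 of the 41 genes by the interaction term, 10 more positive and 6 more negative on HFD, against 17.4% of all genes, 8.69% more positive and 8.73% more negative. Itga5 and Lama2 on the positive side, and Itgb5 and Lamb3 on the negative side, were called also when the WT pair on HFD counted as 1 sample. The interaction was 1.64 ± 0.28 for Itga5, 2.22 ± 0.35 for Lama2, -1.74 ± 0.28 for Itgb5 and -3.27 ± 0.60 for Lamb3 on the log2 scale (adjusted p = 0.0051, 0.0038, 0.0038 and 0.0061). The interaction uses all 4 groups, so it shares its libraries with the comparisons above. In this term 5 of 5 pan-leukocyte, 8 of 10 macrophage, 7 of 8 endothelial and 7 of 8 fibroblast and progenitor markers were more positive. Adipocyte markers were more negative for 8 of 9, and none in these lists went the other way. The lipid-associated macrophage and mural lists each gave 2 more positive and 1 more negative of 6. The part of these cell types was not tested. Leaving out 1 library left 4 to 21 of the 41 genes called.

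The partners of integrins and laminins were read from the same model. Counts in the lists below stand beside 17.1% higher and 15.1% lower among all genes on HFD, and 3.21% and 1.5% on SD. Of 30 tested genes of the adhesion complex inside the cell, 8 rose and 10 fell in Ad-Yap/Taz-KO on HFD (median log2 -0.19). Fermt3, the kindlin of blood cells, had 44 and 67 normalized counts in WT on HFD and 1230 and 999 in Ad-Yap/Taz-KO on HFD (log2 4.33), and Apbb1ip, the Rap1 effector RIAM of leukocytes, rose by 2.33 on the log2 scale. Tln2, a talin, fell from 9726 and 9216 normalized counts in WT on HFD to 1237 and 709 (log2 -3.34 ± 0.25, adjusted p = 1.3e-06). On SD 4 of these 30 genes rose and 4 fell, again with Fermt3 and Apbb1ip among the former and Tln2 among the latter.

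Of 16 other basement membrane genes, 4 rose and 10 fell on HFD (median log2 -0.96). Col4a5 and Col4a6, the paired genes of the alpha 5 and alpha 6 chains of collagen IV, rose, from 161 and 88 to 714 and 1287 normalized counts for Col4a5 and from 27 and 25 to 174 and 347 for Col4a6 (log2 3.0 and 3.19). Smoc1, a secreted matrix protein, was among the 10 that fell (log2 -2.30). On SD 0 rose and 3 fell. Non-integrin laminin receptors, mainly the dystroglycan complex, gave 0 higher and 6 lower of 9 on HFD (median log2 -0.69), led by Sgcd (log2 -2.0), Sspn (log2 -1.85) and Sgce (log2 -1.72), and 0 of 9 on SD in the same limma model.

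Ligands were read in the same way, beside 17.1% higher and 15.1% lower among all genes on HFD and 3.21% and 1.5% on SD. Of 11 matrix integrin ligands, 5 rose and 3 fell on HFD (median log2 1.22). Spp1, osteopontin, which is also held in the lipid-associated macrophage list, had 17 and 5 normalized counts in WT on HFD and 732 and 578 in Ad-Yap/Taz-KO on HFD (log2 5.97 ± 0.83), and was the one ligand of the list to rise on SD. Postn rose (log2 2.12) and Tnc fell (log2 -1.84). Of 11 ligands of leukocyte integrins, 7 rose and 0 fell on HFD (median log2 1.19), among them Icam1, which binds LFA-1 and Mac-1, from 2048 and 2152 normalized counts to 7973 and 9025 (log2 2.01 ± 0.28, adjusted p = 0.00017), C3 (log2 1.93) and Icam5 (log2 1.81), and 0 passed on SD. Of 8 fibroblast and progenitor markers, 6 rose on HFD and 0 on SD, and their sum was 21910 and 22320 normalized counts in WT on HFD, 68613 and 76849 in Ad-Yap/Taz-KO on HFD and 29313 to 50807 on SD. The endothelial sum was 16040 and 16533 in WT on HFD and 21294 and 32648 in the knockout, with 3 of 8 higher, and on SD it was 31753 and 26232 in WT and 24912 and 13588 in the knockout. Adipocyte markers gave 0 higher and 8 lower of 9 in the knockout on HFD (median log2 -1.57), the direction in which Itgb5, Itga7, Itga6 and Lama4 moved. The part of all these cells in the changes of Lama2, Lamc3, Itga11, the collagen IV genes, Itgb5, Itga7, Itga6 and Lama4 was not tested.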

How the data were processed

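The deposited table held a normalized count, treated here as a score, for 30387 Ensembl genes in 8 libraries of ribosome-depleted total RNA (single-end reads). Per the study's methods and the submitters' processing notes, the authors aligned reads with STAR 2.5.2b to GRCm38 (mm10), counted them per gene with featureCounts 1.5.1 and normalized with DESeq2 1.14.1, and the deposited scores are rounded. Rounding changes mainly low values, and a size factor assumes that most genes do not change. Strand setting in counting is not given in the sources used here.

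Groups came from the labels. log2(score + 1) was fitted with limma 3.58.1 (R 4.3.3; eBayes with trend, 4 group means, 4 residual degrees of freedom) over 18800 genes with a mean of at least 5. In simulated data 200 of 18800 genes were changed between Ad-Yap/Taz-KO and WT on HFD. From these, 149 were called, none in the wrong direction, with 6 false calls among the unchanged genes. The simulation gave all genes and groups the same relative spread beyond counting, and far fewer changed genes than the 32.2% called in the data. Its rate of false calls therefore need not hold for these groups of unequal spread. Reads on genes per library (13.99 to 22.3 M) were estimated from the steps of low values, and intervals from them would cover counting error only. Genes are named by the rule for the class or list, with those of pathway lists limited to 3 per list with a mean of at least 50. Levels per kb used exon lengths from GENCODE vM21 on GRCm38. Scaling, filter, pseudocount, model, block and library alternatives were run. The members and lists were chosen with earlier results of these data known. One gene is counted but not reported here. No amino acid sequences were used here.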

Additional observations from a re-analysis of the deposited data

Results flagged for a closer look

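For 16 genes, 15 of which are given here, the interaction term of the limma model passed, so that the knockout difference on HFD was not that on SD. The term is the log2 fold change of Ad-Yap/Taz-KO over WT on HFD minus that on SD. Among leukocyte integrins it was 1.92 for Itgam, 1.22 for Itgb2, 1.95 for Itgb7 and -2.40 for Itgae. Among matrix integrins it was 1.64 for Itga5, 1.65 for Itgb4, -0.67 for Itga6, -1.32 for Itga7 and -1.74 for Itgb5. Laminins gave 2.22 for Lama2, 1.75 for Lama5, 2.06 for Lamc3 and -3.27 for Lamb3. The other genes gave 2.54 for Itgbl1 and -1.19 for Itgb1bp1. With libraries scaled to the same total, the term was -0.24 for Itga6 and -0.89 for Itga7 (limma adjusted p = 0.47 and 0.058). Itgb1bp1 also lost its call under that scaling. Once the WT pair on HFD was averaged to 1 sample, 4 of the 16 were called, namely Itga5, Lama2, Itgb5 and Lamb3. Groups of 2 libraries are too small for a test of single libraries that stand apart.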

How the results depend on the processing

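Of 108 values for single genes, 7 of the recomputed values had the other sign, none of them called. The log2 difference of Itgb1 between the genotypes on HFD was 0.07 with libraries scaled to the same total and 0.19 with quantile normalization, and that of Lamc1 on HFD was 0.10 with quantile normalization. On SD, with 1 library left out, it ranged from -0.22 to 0.20 for Itgb5 (above 0 without replicate 2 of WT or of Ad-Yap/Taz-KO on SD), from -0.59 to 0.22 for Itgb1bp1 (above 0 without replicate 1 of Ad-Yap/Taz-KO on SD) and from -0.75 to 0.20 for Lama2 (above 0 without replicate 2 of that group). Scaling to the same total moved the median of all genes from 0.09 to 0.47 between the genotypes on HFD, from -0.08 to -0.48 between the diets in WT and from 0.10 to 0.52 in the interaction. The split of called genes by direction then became 14 higher and 3 lower in the interaction, from 10 and 6, and 12 and 4 with upper-quartile scaling.

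The number of genes called between the genotypes stayed within 1.5 times on each diet under every alternative run. With 1 library left out it was 21 to 27 on HFD and 6 to 8 on SD. The 15 genes called between diets in WT became 7 with no filter, 6 at an adjusted p of at most 0.01 and 1 with the WT pair on HFD as 1 sample, and with 1 library left out the range was 2 to 17 (2 without WT SD replicate 1, 7 without WT SD replicate 2, 3 without WT HFD replicate 1 and 6 without WT HFD replicate 2). The 2 called between diets in Ad-Yap/Taz-KO became 1 with a pseudocount of 0.1, a mean of at least 50 or scaling to the same total. They became 0 with no filter, only the groups compared or an adjusted p of at most 0.01. In these last settings 14, 10 and 13 had an unadjusted limma p under 0.05, and the share of all genes at that limit was not computed. The range with 1 library left out was 0 to 7. The 16 of the interaction became 10 with quantile normalization, 5 with no filter and 4 with the WT pair on HFD as 1 sample or at an adjusted p of at most 0.01. Leaving out 1 library gave 4 to 21, with 4 without WT SD replicate 1 or WT HFD replicate 1, 6 without WT HFD replicate 2, 9 without WT SD replicate 2 or Ad-Yap/Taz-KO SD replicate 2, and 7 when Ad-Yap/Taz-KO HFD replicate 2 was absent. The cause of these changes was not tested, beyond the lower number of samples. A lone library left in a group was assumed to vary like the other groups. With Itga4 counted among the matrix integrins, 3 in place of 2 of them were called on SD, with 2 in place of 1 higher, and no other total of a class moved by 1.5 times or more.

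Replicate numbers did not pair the libraries: deviations of same-numbered libraries correlated at -0.3 to 0.108 across genes. With the replicate block, 26 and 7 genes were called between the genotypes on HFD and SD, 13 between diets in WT, 1 between diets in Ad-Yap/Taz-KO and 13 in the interaction. A count model was not run, because rounded values do not return whole reads for every gene. Genes with few counts, such as Itgad, Itgb6 and Itgb8, are limited by depth, since 3 reads correspond to 2.39 to 3.40 normalized counts.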

Other observations

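Marker lists not given above were as follows for Ad-Yap/Taz-KO against WT, first on HFD and then on SD. Among all genes tested, 32.2% were called on HFD and 4.71% on SD. Of 6 lipid-associated macrophage markers, 5 and 6 rose. Mast cell markers gave 2 and 0 higher of 3 tested, and mural markers 2 higher and 2 lower of 6 on HFD and none on SD. Mesothelial markers gave 1 higher and 1 lower of 6 on HFD, and Schwann cell markers 1 higher and 1 lower of 3 on HFD, with none of either called on SD. Skeletal muscle markers gave 1 higher (Tnnt3, log2 3.23) and 1 lower (Acta1, log2 -1.45) of 3 tested on HFD, and 1 higher (Acta1, log2 4.12) and 0 lower on SD. Acta1 ranged from 1359 to 2207 in Ad-Yap/Taz-KO on SD, 97 to 101 in WT on SD and 66 to 445 on HFD, in normalized counts.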
